A study of Rattus norvegicus with 9 samples.

Results

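The genes described here are those of the rat major histocompatibility complex (MHC, called RT1 in the rat) and of the machinery that loads and displays antigen on its products. They were taken from the gene count table as every symbol beginning with RT1-, together with Cd74, Ciita, B2m, Tap1, Tap2, Tapbp, Psmb8, Psmb9, Psmb10, Cd80, Cd86 and Cd40. Nlrc5 was also sought and is not analysed here. This gave 61 of the 17337 genes in the table, made up of 39 class I heavy chain genes, 10 class II chain genes, 7 genes of the class I machinery, 2 of the class II machinery and 3 costimulation genes. All samples were cardiac fibroblasts, cells that lay down the collagen matrix of the heart, from Sprague Dawley rats. The fetal group came from embryonic day 18, the neonatal group from postnatal day 1 and the adult group from animals of 7 weeks, with 3 libraries in each. Cells of every group were at passage 0 and were grown to confluency in flasks with serum and ascorbic acid, with no treatment that set the groups apart. The labels do not say whether the 3 libraries of an age came from separate animals, litters or flasks, nor do they mention a sort, so each library measured the RNA of all cells in the culture.

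Class I molecules are carried by nearly all nucleated cells. A heavy chain pairs with beta-2 microglobulin (B2m) and displays short peptides cut by the proteasome, carried into the endoplasmic reticulum by the Tap1 and Tap2 transporter and loaded with the help of tapasin (Tapbp). Class II molecules, alpha and beta chains guided by the invariant chain (Cd74), display peptides from engulfed material and are best known on macrophages, dendritic cells and B cells, under the control of the coactivator Ciita. Cd80, Cd86 and Cd40 are costimulatory surface proteins of antigen-presenting cells. Interferon-gamma is a well-known inducer of both classes and of the immunoproteasome subunits Psmb8, Psmb9 and Psmb10, which take the place of the constitutive subunits Psmb5, Psmb6 and Psmb7.

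Promoters of class II genes are known for a conserved module that ends in a Y box, a CCAAT element read as GATTGG on the other strand and bound by the factor NF-Y. RefSeq promoter windows on build GRCr8, running from 250 bases before to 50 bases after each gene start, were matched by symbol for 51 of the 61 genes. GATTGG, searched on both strands, stood in the windows of 9 of 9 class II chains and of 16 of 32 class I heavy chains, against 14.8% of all 33469 promoters. Among the heavy chain genes tested for expression below, 13 of 19 had it. The windows shown are those of the 4 tested class II chains, of RT1-A2, the class I gene with the highest adult level, and of RT1-M6-2, the only tested RT1 gene whose level was lower in the adult libraries. Each is 120 bases long, begins 150 bases before the gene start and is written 5′ to 3′ on the gene's strand, with the Y box in capitals.
RT1-Da, chr20:4515265-4515384 (+): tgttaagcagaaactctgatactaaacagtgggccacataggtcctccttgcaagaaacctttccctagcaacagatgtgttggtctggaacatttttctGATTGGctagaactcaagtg
RT1-Ba, chr20:4576907-4577026 (+): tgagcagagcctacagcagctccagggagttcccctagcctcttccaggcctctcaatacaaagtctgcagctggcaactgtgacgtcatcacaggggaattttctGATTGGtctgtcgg
RT1-Bb, chr20:4604149-4604268 (-): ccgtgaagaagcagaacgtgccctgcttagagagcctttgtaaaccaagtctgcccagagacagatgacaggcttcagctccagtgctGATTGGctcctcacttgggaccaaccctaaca
RT1-Db1, chr20:4560193-4560312 (-): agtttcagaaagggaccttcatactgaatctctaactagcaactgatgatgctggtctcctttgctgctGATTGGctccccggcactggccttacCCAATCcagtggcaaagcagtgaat
RT1-A2, chr20:4872721-4872840 (+): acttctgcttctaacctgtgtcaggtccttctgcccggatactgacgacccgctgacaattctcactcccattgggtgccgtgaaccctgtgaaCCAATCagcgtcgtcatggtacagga
RT1-M6-2, chr20:1588383-1588502 (+): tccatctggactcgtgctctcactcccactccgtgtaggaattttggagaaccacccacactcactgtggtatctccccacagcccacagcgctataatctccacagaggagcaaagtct
The Y boxes began 50 bases before the gene start in RT1-Da, 44 in RT1-Ba, 62 in RT1-Bb and 56 in RT1-A2, and RT1-Db1 had matches at 81 and 55 bases. The RT1-M6-2 window held no match. The X2 box core TGACG, a short motif of the same module, was in 1 of 9 class II and 9 of 32 class I windows, against 21.2% of all promoters. Other forms of the X2 box were not searched, so a window without TGACG may still hold one.

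The second motif searched was the interferon-stimulated response element, read as GAAA, any 2 bases and GAAA on either strand, the site of interferon regulatory factors. It stood in 6 of 7 windows of the class I machinery, that of Psmb9 being the exception, in 3 of 32 class I heavy chain windows and in 0 of 9 class II windows, against 3.92% of all promoters. Only these letters were searched. Related forms of the element were not counted, so a window without a match may still hold one. Tap1 and Psmb9 are transcribed head to head, with starts 457 bases apart. Windows of 5 machinery genes are shown for this motif, each 80 bases long with the motif in capitals.
B2m, chr3:129549145-129549224 (+): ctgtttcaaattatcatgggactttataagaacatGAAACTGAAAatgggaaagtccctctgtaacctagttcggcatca
Tap1, chr20:4668620-4668699 (-): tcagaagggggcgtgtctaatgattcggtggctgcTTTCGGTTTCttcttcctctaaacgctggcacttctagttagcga
Psmb8, chr20:4656991-4657070 (-): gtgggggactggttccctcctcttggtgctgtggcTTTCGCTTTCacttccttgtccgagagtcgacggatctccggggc
Psmb10, chr19:50743321-50743400 (-): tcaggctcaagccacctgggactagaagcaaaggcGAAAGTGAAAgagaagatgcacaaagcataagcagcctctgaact
Tapbp, chr20:4967859-4967938 (-): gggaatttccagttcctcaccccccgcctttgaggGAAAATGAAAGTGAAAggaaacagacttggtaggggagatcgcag
The matches began 150 bases before the start of B2m, 121 before Tap1 and 4 before Psmb8, at 73 and 17 bases in Psmb10, of which only the farther is shown, and at 26 and 20 bases in Tapbp, where they overlap. A kappa B motif, read as GGGA, any 4 bases and CC on either strand, was in 14 of 32 class I, 3 of 9 class II and 3 of 7 machinery windows, against 19.3% of all promoters. These are matches of letters. Factor binding was not measured.

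Levels are given as CPM, counts per 1000000 after TMM scaling of the library totals, which ran from 13392825 to 22850491 assigned counts. The adult libraries were the shallowest, at 13392825 to 13810825. Fetal replicate 3 stood apart from the other fetal libraries. The chi-square per degree of freedom of its gene counts was 90.0 and 97.3 against fetal replicates 1 and 2, which gave 3.94 against each other, and its 8 fibroblast markers summed to 23563 CPM against 50194 and 47410. Among adult libraries the chi-square of replicate 1 was 25.8 and 43.0 against replicates 2 and 3, which gave 6.76 against each other. The sum of the fibroblast markers was high at every age, at 67719 to 73983 CPM in neonatal and 21737 to 29546 CPM in adult libraries. In the tests below, 1 of the 8 was higher and 4 were lower from neonatal to adult. The shares of all genes tested were 31.6% and 31.8%. The 12 macrophage markers summed to 16.0, 14.7 and 72.7 CPM in fetal replicates 1 to 3, to 158 to 175 CPM in neonatal libraries and to 4386, 5236 and 6034 CPM in adult replicates 1 to 3. The lowest adult value of each of the 12 lay above its highest value elsewhere, and Cd163 was at 0 in the fetal and neonatal libraries. The share of all genes with such a gap is not given here. For scale, the tests below called 31.6% of all genes tested higher in adult than in neonatal libraries. Dendritic cell markers (6 of 8 listed were in the table) summed to at most 15.3 CPM in any library, a sum over genes that differed in direction. Flt3, Xcr1 and Clec9a were at 0 in fetal and neonatal libraries and had counts in the adult. In the tests described below, 3 of the 6 were tested. From neonatal to adult 2 were higher and 1 lower, where 31.6% and 31.8% of all genes tested were. B cell markers summed to at most 0.159 CPM, with Cd79b and Ms4a1 at 0 throughout. T cell markers summed to 1.03 to 2.60 CPM in fetal, 0.511 to 0.971 CPM in neonatal and 5.47 to 7.19 CPM in adult libraries. Of these 6 genes, Cd3d was at 0 throughout and 1 was tested, which was higher in adult than in neonatal libraries. Endothelial markers summed to 11.2 to 15.6 CPM in fetal and 93.7 to 102 CPM in adult libraries, over genes that differed in direction. From neonatal to adult, 4 of the 7 tested were higher and 2 lower, against the same 31.6% and 31.8% of all genes. Cardiomyocyte markers summed to 7702 to 9564 CPM in fetal and 304 to 317 CPM in adult libraries. All 8 were lower in adult than in fetal libraries, where 35.5% of all genes tested were. Their median log2 change was -11.8, a larger fall than that of the sum. In RNA from a whole culture, fewer cells of a type and less RNA per cell cannot be told apart. The part of macrophage RNA in each difference given below was not tested.

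Of the 61 genes, 35 had enough counts to be tested. Of the remaining 26, 10 were at 0 in all 9 libraries and 16 had no more than 16 counts in any library. The tests were edgeR quasi-likelihood comparisons over 11337 genes, with Benjamini-Hochberg adjusted p below 0.05 as the threshold for a call. Only through the adult libraries did 9 of the 35 pass the count filter, namely Cd74, RT1-Ba, RT1-Bb, RT1-Da, RT1-CE3, RT1-CE6, RT1-N2, RT1-O1 and RT1-T24-3. A difference in those follows from the filter, and the counts that follow are over the other 26. Among these, RT1-M6-2 passed only through the fetal and neonatal libraries, so its lower adult level follows from the filter likewise. From fetal to neonatal, 12 of the 26 rose, 1 (Ciita) fell and 13 did not pass, where 36.3% of all genes tested passed, 18.3% higher and 18.0% lower. Against neonatal, 24 of the 26 were higher in adult cultures, 1 (RT1-M6-2) was lower and 1 (Cd80) did not pass, where 63.5% of all genes passed, 31.6% higher and 31.8% lower. Against fetal, 23 of the 26 were higher in the adult, RT1-M6-2 was lower, and Ciita and Cd80 did not pass, where 70.5% of all genes passed, 34.9% higher and 35.5% lower. The 12 genes that rose from fetal to neonatal also rose from neonatal to adult. The comparisons with the adult group share the adult libraries, and those with the fetal or neonatal group share these likewise, so their counts are not independent of each other.

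**Figure D1:**
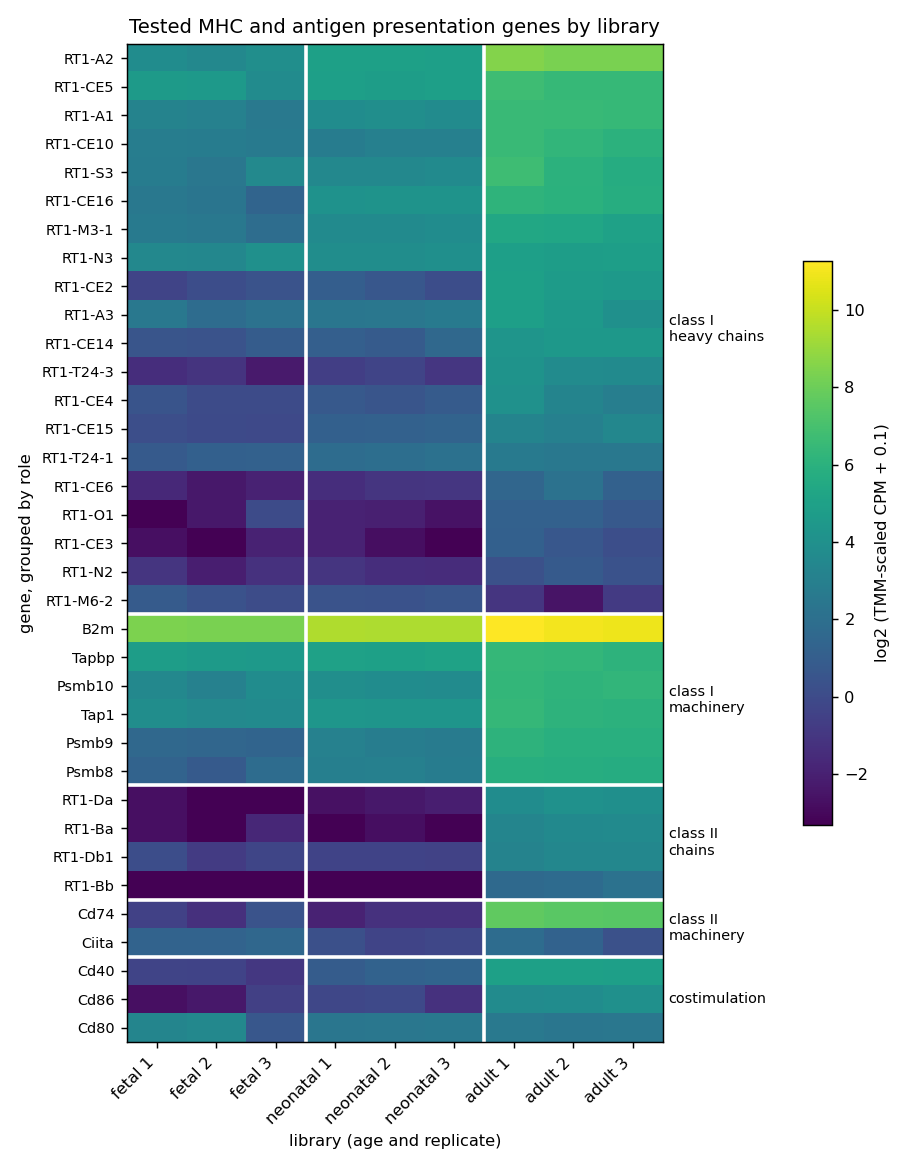
Level of each of the 35 tested genes (rows, grouped by role) in each of the 9 libraries (columns, 3 per age), as log2 of TMM-scaled CPM with a small constant added. Most rows are highest in the 3 adult columns, RT1-M6-2 is lowest there, and Cd80 is lowest in fetal replicate 3.

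The summed level of the class I heavy chains was higher at each later age. The 39 genes together summed to 99.2, 89.4 and 88.2 CPM in the fetal libraries (92.3 ± 6.07, SD, n = 3), 156, 156 and 162 CPM in the neonatal (158 ± 3.55) and 1060, 884 and 836 CPM in the adult (926 ± 118). The ages did not overlap, and the sum was 1.71 times higher in neonatal than in fetal libraries and 5.86 times higher in adult than in neonatal. Adult replicate 1, which had the highest class I sum of the adult libraries, had the lowest macrophage marker sum of the adult libraries. Whether the sums were related was not tested.

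RT1-A2, a classical class I heavy chain gene (rn6 chr20:5375011-5378536), went from 13.7, 11.2 and 14.5 CPM in fetal libraries to 31.6, 30.6 and 29.4 in neonatal and 370, 316 and 319 in adult. It rose by 1.22 ± 0.11 (SE) on the log2 scale from fetal to neonatal (adjusted p = 7.01e-05) and by 3.46 ± 0.11 from neonatal to adult (adjusted p = 2.36e-08). Its share of the class I sum grew from 14.3 ± 2.01% in fetal through 19.3 ± 1.06% in neonatal to 36.3 ± 1.70% in adult libraries, and per kilobase of exon its adult level was 215 CPM, above every other heavy chain gene. RT1-A1, its classical neighbour, had 9.12, 8.33 and 5.94 CPM in fetal, 13.3, 14.7 and 13.3 in neonatal and 94.2, 89.1 and 89.1 in adult libraries. It too rose at both steps, by 0.82 ± 0.14 (adjusted p = 0.00224) and by 2.72 ± 0.13 (adjusted p = 3.28e-07). RT1-A3 had 5.72, 3.53 and 4.35 CPM in fetal, 5.23, 5.34 and 6.02 in neonatal and 29.9, 22.3 and 15.9 in adult libraries. Its fetal and neonatal values overlapped, and only the later step passed (log2 2.04 ± 0.25, adjusted p = 8.69e-05).

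The fetal order of the heavy chains was another. RT1-CE5, from the RT1-C/E region that holds many class I genes (rn6 chr20:4892702-4896991), had the highest fetal level of the heavy chains per kilobase of exon (12.9 CPM), with 24.9, 24.0 and 13.3 CPM in fetal, 29.5, 28.2 and 30.5 in neonatal and 106, 88.2 and 86.5 in adult libraries. Its log2 change from fetal to neonatal was 0.50 ± 0.21 (adjusted p = 0.0853), and 0.27 without fetal replicate 3 (adjusted p = 0.0452). From neonatal to adult it rose by 1.67 ± 0.20 (adjusted p = 0.000102), less than RT1-A2 in value, and its share of the class I sum went from 22.3 ± 6.37% in fetal to 10.1 ± 0.201% in adult libraries. RT1-N3 (rn6 chr20:3167085-3170945) had 10.96, 10.9 and 16.1 CPM in fetal, 14.4, 14.1 and 15.3 in neonatal and 29.6, 27.4 and 28.4 in adult libraries, a rise of 0.97 ± 0.15 from neonatal to adult (adjusted p = 0.000365). From fetal to neonatal its log2 change was 0.20 ± 0.15 (adjusted p = 0.307), and 0.42 without fetal replicate 3 (adjusted p = 0.00413). Its share of the sum went from 13.8% in fetal through 9.22% in neonatal to 3.10% in adult libraries.

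Another 4 heavy chains rose already by postnatal day 1. RT1-CE16 had 5.67, 5.02 and 2.49 CPM in fetal, 17.3, 17.8 and 18.2 in neonatal and 72.1, 63.8 and 54.1 in adult libraries, and its early rise of 2.01 ± 0.24 (adjusted p = 0.000383) was as large in value as its later 1.83 ± 0.22 (adjusted p = 7.52e-05). RT1-M3-1, whose mouse counterpart presents formylated peptides, had 6.26, 5.69 and 3.61 CPM in fetal, 12.5, 12.4 and 13.7 in neonatal and 43.5, 38.8 and 32.6 in adult libraries. It rose by 1.30 ± 0.19 (adjusted p = 0.00108) and then by 1.58 ± 0.18 (adjusted p = 5.52e-05). RT1-CE15 had 1.03, 0.882 and 0.849 CPM in fetal, 2.15, 2.23 and 2.39 in neonatal and 9.56, 7.94 and 10.9 in adult libraries. RT1-T24-1 had 1.67, 2.16 and 2.18 CPM in fetal, 3.41, 3.81 and 4.27 in neonatal and 6.27, 5.70 and 5.54 in adult libraries. This last gene had the smallest rise from neonatal to adult of the heavy chains (log2 0.61 ± 0.18, adjusted p = 0.0159), which did not pass without neonatal replicate 1 (log2 0.52, adjusted p = 0.0739) or 2 (log2 0.60, adjusted p = 0.0585).

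Other heavy chains rose mainly between the neonatal and adult libraries. RT1-CE10 had 7.07, 6.92 and 6.42 CPM in fetal, 6.77, 8.04 and 8.09 in neonatal and 95.2, 76.3 and 66.4 in adult libraries, with log2 changes of 0.16 ± 0.15 (adjusted p = 0.415) and 3.38 ± 0.15 (adjusted p = 1.52e-07). RT1-CE2 had 0.702, 0.970 and 1.22 CPM in fetal, 1.98, 1.49 and 0.971 in neonatal and 31.2, 25.4 and 23.7 in adult libraries, a rise of 4.16 ± 0.26 at the later step (adjusted p = 1.37e-06). In both the fetal and neonatal values overlapped. RT1-S3 had 6.86, 5.47 and 11.7 CPM in fetal, 11.3, 11.2 and 12.4 in neonatal and 107, 66.3 and 52.6 in adult libraries, with adult replicate 1 above the other adult libraries. RT1-CE14 had 1.35, 1.23 and 1.80 CPM in fetal, 2.04, 1.72 and 2.91 in neonatal and 19.0, 22.0 and 21.9 in adult libraries. RT1-CE4 had 1.30, 0.926 and 0.902 CPM in fetal, 1.6, 1.35 and 1.75 in neonatal and 16.6, 9.46 and 7.34 in adult libraries. Of the successive steps, these 3 genes passed only the later, with log2 changes of 2.70, 3.25 and 2.83 (adjusted p = 0.000102, 2.23e-06 and 6.30e-05). Without fetal replicate 3, RT1-CE14 passed the earlier step too (log2 0.76, adjusted p = 0.0341).

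RT1-M6-2 went the other way. This class I-like gene (rn6 chr20:2076267-2079183) had 1.73, 1.19 and 0.955 CPM in fetal, 1.21, 1.16 and 1.36 in neonatal and 0.383, 0.0722 and 0.449 in adult libraries, from 32, 27 and 18, then 22, 25 and 21, then 5, 1 and 6 counts. It fell by 2.03 ± 0.50 on the log2 scale from neonatal to adult (adjusted p = 0.00588) and did not overlap there. Against a log2 change of at least 1 the fall did not pass (adjusted p = 0.0709). With at most 6 counts in an adult library, RT1-M6-2 passed the count filter only through the earlier ages. Its lower adult level thus follows from the filter. The remaining 5 tested heavy chains reached the test only through the adult libraries, and their values stand as a description. RT1-T24-3 had 0.270, 0.353 and 0.106 CPM in fetal, 0.550, 0.697 and 0.388 in neonatal and 17.8, 13.1 and 12.4 in adult libraries. RT1-CE6 had 0.216, 0.0882 and 0.159 CPM in fetal, 0.275, 0.372 and 0.388 in neonatal and 2.68, 4.40 and 2.25 in adult libraries. RT1-O1 had 0, 0.0882 and 0.902 CPM in fetal, 0.165, 0.139 and 0.0647 in neonatal and 2.22, 2.24 and 1.57 in adult libraries. In these 3, and in RT1-CE3 and RT1-N2 below, the lowest adult value exceeded the highest value at the other ages. Passing the count filter only through the adult libraries favours such a gap. RT1-CE3 had 0.0540, 0 and 0.159 CPM in fetal, 0.165, 0.0465 and 0 in neonatal and 2.14, 1.44 and 1.05 in adult libraries. RT1-N2 had 0.378, 0.132 and 0.318 CPM in fetal, 0.385, 0.279 and 0.259 in neonatal and 1.15, 1.66 and 1.20 in adult libraries, and 84.7% of its exon bases also lie in the exons of another gene.

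**Figure D2:**
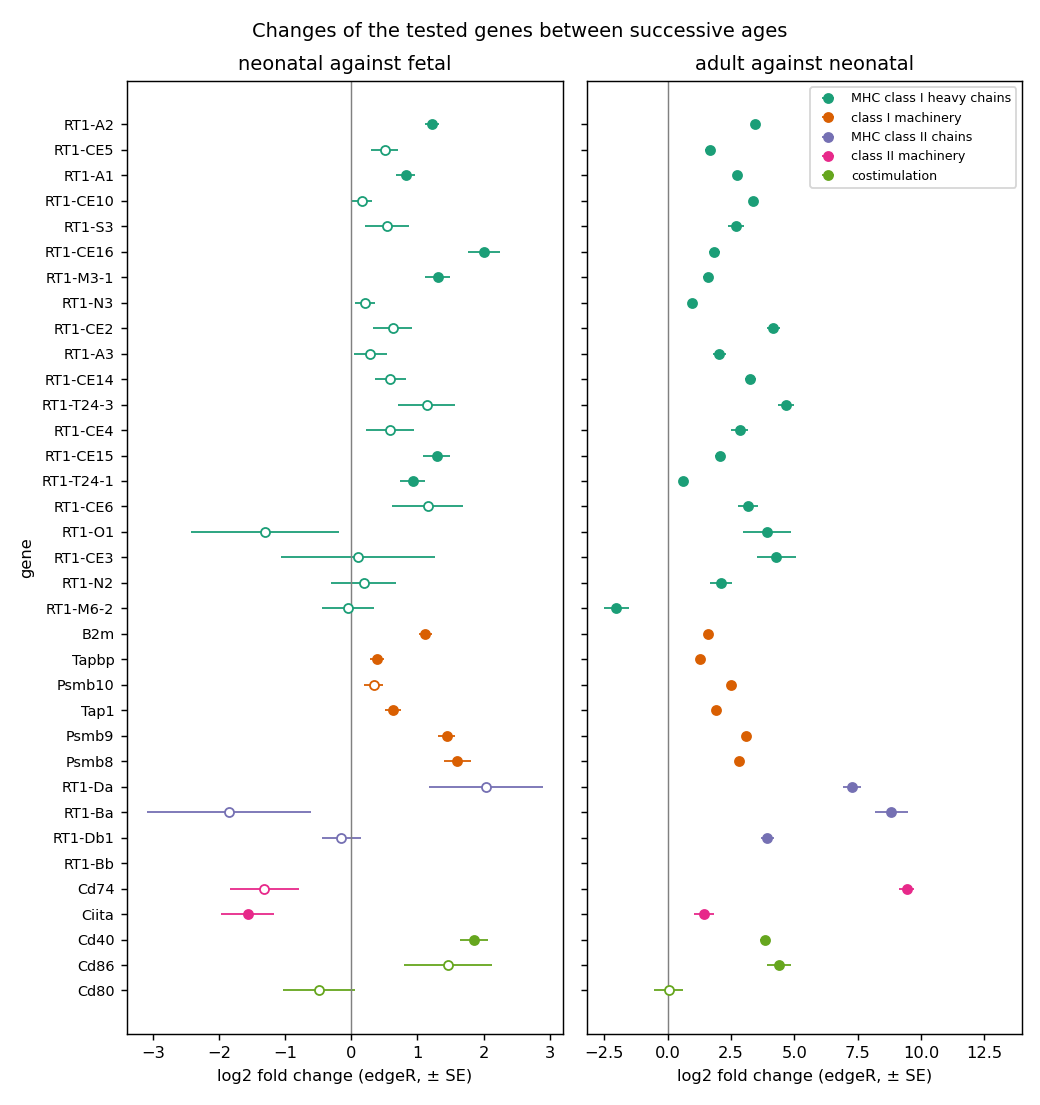
Log2 fold change with its standard error (edgeR) for each tested gene, neonatal against fetal on the left and adult against neonatal on the right, coloured by role, with filled points for adjusted p below 0.05 and RT1-Bb left blank because it had no counts before the adult age. The left panel holds filled and open points on both sides of 0. In the right panel Cd80 is open, and RT1-M6-2, which passed the count filter only through the earlier ages, lies below 0. Of the 9 genes that passed this filter only through the adult libraries, those drawn had to lie above 0 in the right panel and show no independent test.

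Of the 6 tested genes of the class I machinery, 5 rose from fetal to neonatal and all 6 from neonatal to adult, where 18.3% and 31.6% of all genes tested rose. B2m, the light chain shared by class I molecules (rn6 chr3:114087287-114093311), had the highest level of the 61 genes per kilobase at each age (180, 391 and 1169 CPM), with 337, 325 and 328 CPM in fetal, 731, 705 and 710 in neonatal and 2461, 2051 and 1904 in adult libraries. It rose by 1.12 ± 0.10 (adjusted p = 7.19e-05) and then by 1.58 ± 0.10 (adjusted p = 1.42e-06). Tap1, a subunit of the peptide transporter, had 14.2, 11.4 and 12.5 CPM in fetal, 20.1, 19.0 and 19.7 in neonatal and 85.3, 67.7 and 66.3 in adult libraries, rising by 0.63 ± 0.12 (adjusted p = 0.00424) and 1.90 ± 0.12 (adjusted p = 1.50e-06). Tapbp, which bridges the transporter and empty class I molecules, had 27.6, 24.3 and 22.3 CPM in fetal, 32.4, 31.5 and 33.2 in neonatal and 85.2, 80.9 and 69.8 in adult libraries. Its early rise of 0.39 ± 0.10 (adjusted p = 0.0160) did not pass when libraries were scaled by total count alone (adjusted p = 0.0737), and its later rise was 1.28 ± 0.10 (adjusted p = 5.61e-06).

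The 3 immunoproteasome subunits had the largest rises of the class I machinery from neonatal to adult. Psmb9 had 2.92, 2.69 and 2.55 CPM in fetal, 8.31, 7.11 and 6.73 in neonatal and 69.2, 58.7 and 58.8 in adult libraries, rising by 1.44 ± 0.13 (adjusted p = 8.51e-05) and 3.07 ± 0.11 (adjusted p = 6.44e-08). Psmb8 had 2.43, 1.67 and 3.50 CPM in fetal, 7.76, 8.13 and 6.99 in neonatal and 56.5, 53.8 and 51.7 in adult libraries, rising by 1.604 ± 0.21 (adjusted p = 0.000594) and 2.82 ± 0.18 (adjusted p = 1.91e-06). No age overlapped another in either gene. Psmb10 had 11.1, 8.55 and 13.4 CPM in fetal, 14.7, 13.6 and 13.3 in neonatal and 82.2, 70.8 and 79.1 in adult libraries. Its early change of 0.34 ± 0.15 did not pass (adjusted p = 0.108) but did without fetal replicate 3 (0.51, adjusted p = 0.00663), and its later rise was 2.48 ± 0.15 (adjusted p = 1.13e-06).

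Set against the constitutive subunit that each replaces, on CPM per kilobase of exon, the immunoproteasome subunits had a higher ratio at each later age. The ratio of Psmb8 to Psmb5 was 0.0125 ± 0.00529 in fetal, 0.0403 ± 0.00262 in neonatal libraries and 0.262 ± 0.0345 in those of adults (SD, n = 3). Psmb5 itself was at 161, 148 and 163 CPM on average at the 3 ages and passed the test in no comparison of them. The ratio of Psmb10 to Psmb7 was 0.0656 ± 0.0117, 0.0972 ± 0.00175 and 0.435 ± 0.0532. Psmb7 itself fell from fetal to neonatal (log2 -0.23, adjusted p = 0.0364) and rose from neonatal to adult (0.33, adjusted p = 0.00373). The early rise of this ratio thus holds a fall of its denominator. The ratio of Psmb9 to Psmb6 was 0.193 ± 0.0623, 0.693 ± 0.0502 and 2.76 ± 0.790, where Psmb6 had mean levels of only 12.8, 9.02 and 19.9 CPM. Psmb6 was higher in adult than in neonatal (log2 1.14, adjusted p = 0.00223) and fetal libraries (0.64, adjusted p = 0.0317). In each pair the 3 ages did not overlap.

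**Figure D3:**
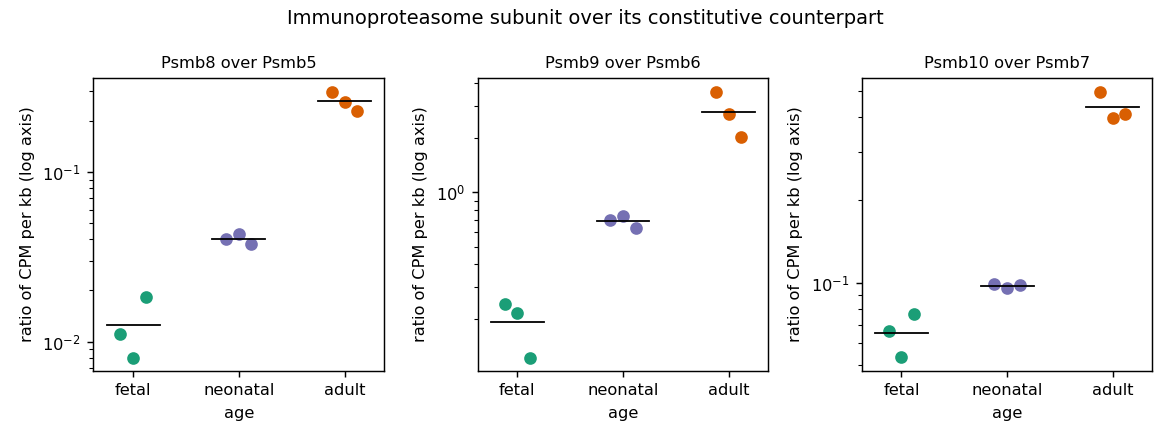
Ratio of each immunoproteasome subunit to its constitutive counterpart on CPM per kilobase (log axes), with 1 point per library and a bar at the mean of each age. Adult points lie highest in every panel, and the Psmb8 over Psmb5 mean goes from 0.0125 in fetal to 0.262 in adult libraries.

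Class II chains were near the counting floor in fetal and neonatal cultures and present in adult ones. The 10 genes summed to 1.13, 0.529 and 0.955 CPM in fetal (0.873 ± 0.311, SD, n = 3), 0.770, 0.836 and 0.841 CPM in neonatal (0.816 ± 0.0396) and 36.5, 43.3 and 44.1 CPM in adult libraries (41.3 ± 4.19). The fetal and neonatal sums overlapped, from 51 and 45 counts over 3 libraries, and the adult sum was 50.6 times the neonatal. Adult replicate 1 had the lowest class II sum and the lowest macrophage marker sum of the adult libraries, but the highest Cd74 level (209 CPM against 187 and 179). Whether these levels were related was not tested.

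**Figure D4:**
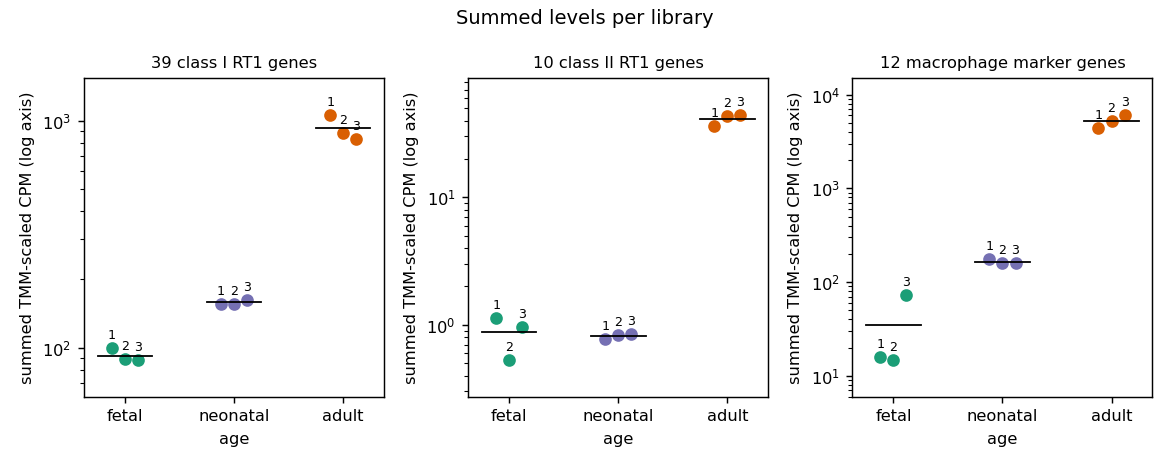
Summed TMM-scaled CPM of the 39 class I RT1 genes, the 10 class II RT1 genes and the 12 macrophage marker genes (log axes), with 1 numbered point per library and a bar at the mean of each age. The class I sum is higher at each age, while the class II sum overlaps between fetal and neonatal libraries and reaches 36.5 to 44.1 CPM in the adult.

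RT1-Da, an alpha chain of the rat counterpart of HLA-DR (rn6 chr20:4127644-4132616), had 0.0540, 0 and 0 CPM in fetal, 0.0550, 0.0929 and 0.129 in neonatal and 13.4, 16.8 and 15.6 in adult libraries. Its 616 adult counts stood against 1 fetal count, a scaled ratio of 918 with an exact 95% interval of 164 to 36333, and against 5 neonatal counts, a ratio of 169 (71.9 to 521). These intervals cover counting error only, over counts pooled across the 3 libraries of an age. RT1-Da reached the test only through the adult libraries, so its values and intervals stand as a description. RT1-Db1, a beta chain of the same molecule (rn6 chr20:4087621-4097191), had the highest level of the class II chains per kilobase in fetal and neonatal libraries (0.576 and 0.513 CPM), with 0.972, 0.485 and 0.743 CPM in fetal, 0.660, 0.650 and 0.647 in neonatal and 9.03, 10.6 and 10.6 in adult libraries. It made up 85.1 ± 6.97% of the class II sum in fetal and 80.1 ± 4.85% in neonatal but 24.4 ± 0.410% in adult libraries, and it rose by 3.93 ± 0.26 from neonatal to adult (adjusted p = 1.98e-06). RT1-Db2 was not tested and had 1 fetal, 3 neonatal and 31 adult counts.

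RT1-Ba and RT1-Bb are the chains of the rat counterpart of HLA-DQ. Both reached the test only through the adult libraries, so the values and the interval below stand as a description. RT1-Ba (rn6 chr20:4066133-4070726) had 0.0540, 0 and 0.212 CPM in fetal, 0, 0.0465 and 0 in neonatal and 10.0, 11.8 and 12.4 in adult libraries, 460 adult counts against 1 neonatal count and a ratio of 630 (exact 95% interval 112 to 24930). RT1-Bb (rn6 chr20:4043726-4049367) was at 0 in all fetal and neonatal libraries and had 3.06, 3.39 and 4.34 CPM in adult libraries. With a floor of 3 counts per library, it was at least 23.8-fold higher in adult than in fetal and at least 21.7-fold higher than in neonatal libraries. The exons of RT1-Bb are overlapped over 52.3% of their bases by LOC688090, where reads go to neither gene. Per kilobase of exon the adult order was RT1-Da at 12.8, RT1-Ba at 10.2, RT1-Db1 at 7.91 and RT1-Bb at 2.38 CPM. The RT1-Bb value divides by all its exon bases, the overlapped ones included. It may thus be too low, and its place in the order is uncertain.

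Cd74, the invariant chain, had 0.594, 0.309 and 1.22 CPM in fetal, 0.165, 0.325 and 0.324 in neonatal and 209, 187 and 179 in adult libraries (rn6 chr18:56071478-56080851). It reached the test only through the adult libraries, so its adult values stand as a description. They did not overlap the others and had a mean of 192 ± 15.8 CPM against 0.708 ± 0.467 in fetal and 0.271 ± 0.0920 in neonatal libraries (SD, n = 3), and at 160 CPM per kilobase it exceeded each class II chain in the adult. From fetal to neonatal its change of -1.32 ± 0.53 did not pass (adjusted p = 0.0796), while without fetal replicate 2 it did (log2 -1.71, adjusted p = 0.0137). With each library left out in turn the change ran from -1.71 to -0.67, the smallest without fetal replicate 3.

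Ciita, the class II coactivator, had another order of levels than the class II genes it is known to control. It had 2.43, 2.42 and 2.81 CPM in fetal, 1.10, 0.697 and 0.777 in neonatal and 3.52, 2.31 and 1.12 in adult libraries (rn6 chr10:5213350-5260608). It fell by 1.57 ± 0.40 on the log2 scale from fetal to neonatal (adjusted p = 0.0145), without overlap. The adult libraries spread over the fetal range, and adult against fetal gave -0.14 ± 0.37 (adjusted p = 0.747). From neonatal to adult Ciita rose by 1.43 ± 0.41 (adjusted p = 0.0124). The fall kept its size but not its call without neonatal replicate 2 (log2 -1.43, adjusted p = 0.0669) or 3 (log2 -1.50, adjusted p = 0.0588), and so did the rise without neonatal replicate 2 (log2 1.28, adjusted p = 0.0531).

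The 3 costimulation genes differed from each other. Cd40, a receptor for T cell help (rn6 chr3:161519851-161534676), rose at both steps, with 0.702, 0.661 and 0.425 CPM in fetal, 1.76, 2.28 and 2.52 in neonatal and 31.2, 31.7 and 30.3 in adult libraries. The changes were 1.85 ± 0.22 (adjusted p = 0.000338) and 3.83 ± 0.17 (adjusted p = 1.76e-07). Cd86, a ligand of Cd28 on T cells (rn6 chr11:67082193-67117948), had 0.0540, 0.0882 and 0.584 CPM in fetal, 0.770, 0.836 and 0.324 in neonatal and 12.9, 13.4 and 15.6 in adult libraries. Fetal replicate 3 lay within the neonatal range, and the early change of 1.46 ± 0.66 (adjusted p = 0.112) became 3.07 without it (adjusted p = 0.00236). From neonatal to adult Cd86 rose by 4.39 ± 0.48 (adjusted p = 4.45e-05).

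Cd80, the other ligand of Cd28 (rn6 chr11:64828688-64853681), had 9.88, 11.1 and 1.49 CPM in fetal, 5.12, 5.39 and 5.57 in neonatal and 5.81, 5.20 and 5.39 in adult libraries. With all libraries it passed no comparison, at -0.49 ± 0.54 from fetal to neonatal (adjusted p = 0.508) and 0.03 ± 0.56 from neonatal to adult (adjusted p = 0.967). Fetal replicate 3 decided the fetal mean. Without it Cd80 was lower in neonatal (log2 -0.97, adjusted p = 0.000196) and adult libraries (log2 -0.94, adjusted p = 7.52e-05) than in fetal ones.

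Other genes of the same pathways are given as counts, to be read against the shares of all genes tested, 18.3% higher and 18.0% lower from fetal to neonatal and 31.6% higher and 31.8% lower from neonatal to adult. Of 18 other genes of the class I pathway, 2 rose and 2 fell from fetal to neonatal, and 10 were higher and 2 lower in adult than in neonatal libraries, with a median log2 change of 0.25 at the later step. Psme1, a subunit of the interferon-inducible proteasome activator, went from 94.4 ± 3.21 to 223 ± 11.1 CPM (log2 1.24 ± 0.10, adjusted p = 9.02e-06), and Tapbpl, a tapasin relative, from 33.4 ± 1.92 to 66.6 ± 6.32 CPM (0.99 ± 0.10, adjusted p = 2.69e-05). The chaperones Canx and Pdia3 were those that fell, by 0.38 ± 0.07 (adjusted p = 0.00076) and by 0.20 ± 0.07 (adjusted p = 0.0343). Of 12 other genes of the class II pathway, mostly proteases and lysosomal membrane proteins, 10 rose from fetal to neonatal and 11 were higher in adult than in neonatal libraries, with none lower and medians of 0.89 and 1.74, where 18.3% and 31.6% of all genes were higher. The proteases Ctsb and Ctsd rose by 2.47 ± 0.07 (adjusted p = 1.77e-08) and 2.70 ± 0.14 (adjusted p = 4.54e-07). The medians over all genes tested were -0.01 at both steps.

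Among 16 tested regulators of MHC genes, 8 rose from fetal to neonatal, and 10 were higher and none lower in adult than in neonatal libraries, where 18.3% and 31.6% of all genes were higher. Irf8, an interferon regulatory factor of myeloid and B cells, went from 1.25 ± 0.154 to 26.5 ± 1.42 CPM (log2 4.39 ± 0.16, adjusted p = 5.24e-08), and Ifngr2, a chain of the interferon-gamma receptor, from 45.8 ± 1.17 to 103 ± 6.93 CPM (1.17 ± 0.07, adjusted p = 8.88e-07). Against fetal, 11 regulators were higher in the adult and 3 lower, namely Rfx5, Nfyb and Creb1, whose products bind the class II promoter module, where 34.9% of all genes were higher and 35.5% lower. Their log2 changes were -0.40, -0.49 and -0.68 (adjusted p = 0.00555, 0.00643 and 0.0194). Of 9 tested other costimulation and checkpoint genes, 5 rose from fetal to neonatal and 6 from neonatal to adult, with none lower, against 18.3% and 31.6% of all genes higher. Tnfsf9, a ligand that costimulates T cells, rose by 4.28 ± 0.20 at the later step (adjusted p = 2.34e-07) and Cd83, a surface protein of mature antigen-presenting cells, by 5.28 ± 0.31 (adjusted p = 1.28e-06).

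Several RT1 counts are limited by how the genes lie on rn6. Tap2, RT1-DMa, RT1-DMb and RT1-Ha are each annotated at 2 places of chromosome 20 on opposite strands, and all 4 had 0 counts in every library. Of the 110 genes in the table with exons on both strands 66.4% were at 0 throughout, against 17.9% of the other 17227, so a 0 in these genes was not read as absent RNA. The other members at 0 were RT1-M4, RT1-Cl, RT1-M10-1, RT1-N1, RT1-CE12 and RT1-CE13. The exons of RT1-N1 and RT1-CE12 are covered over 100% of their bases by another gene and those of RT1-Cl over 98.6%, and RT1-CE13 lies on an unplaced contig. In all, 16 of the 61 genes share exon bases with another gene, 8 of them over more than 75% of their length. Counting left out reads that mapped to several places, so levels of near-identical heavy chain genes are uncertain relative to each other.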

How the data were processed

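Total RNA from 9 cultures of rat cardiac fibroblasts was sequenced, with 3 libraries for each of 3 ages. Per the submitters' processing notes the tools included FastQC, Trimmomatic 0.39, STAR 2.5.2b, Subread 1.6.3 and DESeq2. The authors deposited raw gene counts, made per the file headers with featureCounts 1.6.3 on an rn6 annotation with no options beyond annotation and output. By that program's defaults strand was not used, and reads in several genes or at several places were not counted. A second table the authors deposited holds normalized signal, where in each library 100% of values were counts over a common size factor (relative tolerance 1e-05), and was used for that check only. RefSeq promoter windows (GRCr8) were used for sequences, and expression coordinates are those of rn6.

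Tests used the quasi-likelihood method of edgeR 4.0.16 (R 4.3.3) on all 9 libraries, with robust dispersions, TMM scaling and no term but age. The filter was filterByExpr by age, which left 11337 genes. P-values were adjusted over all genes tested, with a threshold of 0.05, and measure the spread between these libraries, which may be technical. The standard error is the log2 fold change divided by the square root of F. The fits were tested on simulated counts. The floor for low counts was 3 counts per library, and ratios of low counts have exact conditional 95% intervals. CPM per kilobase divides by exon length and is used between genes. Every gene with at least 1 CPM on average at some age is given in every library; in the other pathway lists the 2 genes with the smallest adjusted p in adult against neonatal are named, with any that went against most of their list. The genes, pathway lists and cell type markers were chosen with earlier results of these data known. Alternatives were DESeq2 1.42.0, other scalings, filters and thresholds, a replicate block, fits to 2 ages and leaving out each library.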

Additional observations from a re-analysis of the deposited data

How the results depend on the processing

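Over the tested genes, 104 log2 fold changes between ages were examined, more than are printed above. They include the adult comparisons of RT1-M6-2 and of the 9 genes that passed the filter only through the adult libraries. The direction of those follows from the filter, so their stability shows nothing further. All 104 kept direction and call with DESeq2 size factors, without a filter and with a filter of 1 CPM in 3 libraries. The same held with a prior count of 2 and under the replicate block. So did the 96 that could be fitted with only the 2 ages compared. DESeq2 kept 102 and added the calls of Cd74 and Cd86 from fetal to neonatal (adjusted p = 0.0129 and 0.0347). Replicate numbers do not pair the libraries (correlations of same-numbered deviations from -0.0649 to 0.0521), and the block left 12 of the genes higher and 1 lower from fetal to neonatal, as without it, where 1948 of all 11337 genes tested were higher and 1765 lower under the block. Against a log2 change of at least 1, 16 calls were lost, with 3 genes higher and 0 lower from fetal to neonatal and 0 lower from neonatal to adult, where fewer genes can pass by construction. The count of lower genes from fetal to neonatal was 2 with DESeq2 and 0 to 2 with 1 library left out. From fetal to adult it was 1 to 2, the second gene being Cd80 without fetal replicate 3. Scaling by library size alone moved the median of all genes by -0.171 from fetal to neonatal and by -0.110 from fetal to adult, and the share of calls that were higher from 50.4% to 29.0% in the former. It moved the class I sums to 98.4 CPM in fetal and 150.03 CPM in neonatal libraries and the neonatal class II sum to 0.774 CPM, and turned the uncalled fetal to neonatal changes of RT1-CE10 to -0.00256 and of RT1-CE3 to -0.0623. Leaving out 1 library turned no called change. Uncalled changes that turned ranged, from fetal to neonatal, from -1.13 to 1.34 in RT1-CE3, -0.22 to 0.20 in RT1-M6-2, -0.17 to 0.47 in RT1-N2, -1.86 to 1.27 in RT1-O1 and -0.39 to 0.10 in RT1-Db1, from fetal to adult from -0.57 to 0.19 in Ciita, and from neonatal to adult from -0.0173 to 0.0628 in Cd80. The causes were not tested. RT1-T24-3 passed from fetal to neonatal without fetal replicate 2 (log2 1.53 against 1.14, adjusted p = 0.04998). At these depths 1 count is about 0.05 to 0.08 CPM, and RT1-Da, RT1-Ba and RT1-Bb had at most 5 counts at either early age, so changes of these chains between fetal and neonatal libraries were not detectable at this depth.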
